A study of Homo sapiens with 6 samples.

Results

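Cadherins and protocadherins were followed in RNA-seq libraries of SW620, an established human colorectal cancer cell line, after transfection with a control siRNA (siNC, 3 libraries) or with an siRNA against OSBPL3 (siOSBPL3, 3 libraries). The genes were chosen by symbol alone, as CDH followed by digits or as symbols that begin with PCDH, without CDH1, CDH2, antisense genes and pseudogenes. The rule found 42 of the 20729 genes in the table, namely 6 classic cadherins (3 of type I and 3 of type II), 5 other CDH genes, 4 non-clustered protocadherins, 1 gene of the PCDHA cluster, 10 of the PCDHB cluster and 16 of the PCDHG cluster. By label, both groups are the same line, transfected, and they differ in the siRNA. Whether both hold the same cells cannot be settled from the counts. The question in the title of the series is how OSBPL3 bears on the Hippo pathway and on the response to MEK inhibition. The labels state no siRNA dose, time or sequence, and they do not say if replicates are separate cultures, so p-values may reflect technical spread alone.

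Cadherins are calcium-dependent adhesion proteins of the cell surface, built from repeated extracellular cadherin domains. Classic cadherins bind catenins inside the cell and through them the actin cytoskeleton, which makes them the core of adherens junctions. Protocadherins have more extracellular repeats and other cytoplasmic tails. The clustered protocadherins lie in tandem arrays on chromosome 5, where each variable first exon has a promoter of its own. In neurons, which express different sets of them from cell to cell, promoter choice depends on DNA methylation and on looping by CTCF and cohesin. PCDHA and PCDHG transcripts splice the chosen first exon to constant exons shared by the cluster, whereas PCDHB genes have a single coding exon.

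Most promoters of the clustered genes carry a conserved element with a CGCT core, at which CTCF can bind. RefSeq promoter sequences (GRCh38.p14, 250 bases before to 50 bases after the start) matched 30 of the 42 genes and 23 of the 27 clustered ones. CGCT stood on the gene's own strand in all 23, but it is short and stands on that strand in 54.3% of the 35116 promoters of this length. A longer form, GGTGGCGCT, was in 13 of 14 PCDHB genes with a promoter, expressed here or not, and in 0.501% of all promoters on either strand. The form CTNTNNGNGNCGCTG was in 16 of 20 PCDHG genes with a promoter and in 0.191% of all promoters on either strand. Neither form was in any of the 13 PCDHA genes with a promoter, PCDHAC2 included. Both forms contain CGCT and hold the letters shared by the promoters printed here, so those promoters carry them by construction. The windows below, 60 bases on the plus strand, show the element in the genes on which the cluster results turn, with the longer form in capitals. First come 3 PCDHB genes that were low or absent in siOSBPL3, then 5 PCDHG genes that fell, and then PCDHGA10, which rose, between its neighbours in the list, PCDHGA9 and PCDHGA11.
PCDHB16, chr5:141182292-141182351: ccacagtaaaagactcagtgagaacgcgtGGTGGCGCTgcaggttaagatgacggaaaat
PCDHB13, chr5:141213847-141213906: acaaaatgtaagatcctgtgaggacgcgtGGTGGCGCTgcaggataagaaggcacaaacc
PCDHB14, chr5:141223245-141223304: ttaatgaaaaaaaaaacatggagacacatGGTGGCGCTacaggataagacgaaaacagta
PCDHGA1, chr5:141330385-141330444: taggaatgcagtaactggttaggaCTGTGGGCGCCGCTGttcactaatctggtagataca
PCDHGB2, chr5:141359903-141359962: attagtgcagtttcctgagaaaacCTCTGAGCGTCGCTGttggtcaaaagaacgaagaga
PCDHGA5, chr5:141364089-141364148: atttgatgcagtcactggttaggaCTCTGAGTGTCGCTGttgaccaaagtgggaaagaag
PCDHGA6, chr5:141373817-141373876: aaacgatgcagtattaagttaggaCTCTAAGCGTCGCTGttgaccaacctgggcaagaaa
PCDHGC3, chr5:141475862-141475921: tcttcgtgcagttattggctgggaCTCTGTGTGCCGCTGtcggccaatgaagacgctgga
PCDHGA9, chr5:141402696-141402755: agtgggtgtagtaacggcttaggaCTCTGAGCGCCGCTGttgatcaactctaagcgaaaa
PCDHGA10, chr5:141412913-141412972: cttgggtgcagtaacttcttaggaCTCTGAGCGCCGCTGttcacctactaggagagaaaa
PCDHGA11, chr5:141420954-141421013: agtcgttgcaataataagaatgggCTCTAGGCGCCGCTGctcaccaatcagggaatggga
Over these 60 bases the window of PCDHGA10 was 80% identical to that of PCDHGA9, 70% to that of PCDHGA5 and 58.3% to that of PCDHGC3.

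The libraries held between 30040020 and 39701340 counts. The targeted gene OSBPL3 stood at 179, 174 and 175 CPM (counts scaled to a library of 1e6, with TMM factors) in siNC and at 40.2, 12.2 and 15.1 CPM in siOSBPL3, so it was lower in all 3 libraries given its siRNA, least so in replicate 1. The log2 fold change was -2.97 ± 0.48 (SE; adjusted p = 0.0016, edgeR), -3.68 without that library and -2.31 with a correction for GC and transcript length. The groups differed far beyond OSBPL3. Of 15506 genes tested, 12437 (80.2%) were called, which here means an adjusted p under 0.05 in edgeR's quasi-likelihood test, and the correlation of log2 CPM was at least 0.989 between libraries of a group and at most 0.809 between groups. Of 11 colorectal epithelial markers, EPCAM and KRT8 were high in both groups, CDX2 rose from 1.15 to 63.5 CPM, VIL1 fell from 482 to 62.5 CPM, and KRT20, CDX1 and CEACAM5 were under 0.5 CPM in both. Among the 9 of them tested, 4 were called higher, 3 lower and 2 not called, a share called of 77.8%. KRT8 (log2 fold change -0.33) and KRT18 (-0.95, from 2183 to 1131 CPM) were among the lower ones. KRT19 (0.23) turned to -0.79 with the correction for GC and length. Summed levels of 8 measured fibroblast or mesenchymal markers ran from 758 to 771 CPM in siNC and from 4.37 to 8.58 CPM in siOSBPL3, mostly through VIM (694 against 1.64 CPM), with DCN, COL3A1, THY1 and FAP at or near 0 in both groups. Summed neural markers ran from 149 to 154 CPM in siNC and from 151.5 to 193 CPM in siOSBPL3. GFAP and ELAVL3 were at or near 0. The sums hide opposite moves, as 2 of the 4 neural markers tested were called higher and 2 lower. MAP2 rose from 0.198 to 12.6 CPM and TUBB3 from 65.7 to 129 CPM. NES fell from 82.7 to 34.7 CPM, and SYP had a log2 fold change of -0.79. The call of TUBB3 was lost with the correction for GC and length (log2 fold change 0.08). Summed endothelial markers stayed under 2.50 CPM and summed leukocyte markers at or under 21.02 CPM in every library, with PTPRC and CD3E near 0. Among the leukocyte markers, CD14 (mean 0.278 against 3.06 CPM) and CD8A (0.649 against 4.54 CPM) were called higher in siOSBPL3. CD68 (19.02 against 5.87 CPM) was called lower. The part that these shifts have in the results below was not tested, and an effect of OSBPL3 depletion and any other difference between the groups of libraries cannot be told apart.

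Among the 42 genes, 19 passed the filter on low counts. Of these, 8 were higher and 9 lower in siOSBPL3 (adjusted p of 0.05, edgeR), against 40.4% and 39.8% of all genes tested, and 2 were not called. Without siOSBPL3 replicate 1, the library that stood apart most within its group, 8 were higher and 11 lower. Calls over all genes also grew in that fit, from 12437 to 13034 (6481 higher and 6553 lower). The share called, 89.5%, was near the background of 80.2%. The sizes of the differences lay further out. Of the 19, 13 were called with a change of at least 8-fold, against 14.3% of all genes tested, and the median absolute log2 fold change was 4.60, against 1.00 over all genes tested. A total of 6 genes had 3 counts or fewer over the 3 libraries of one group, against 3.90% of all genes tested. These shares leave out the 23 genes that did not pass, and a gene that passed through its high group alone had to differ, so they describe the 19 and support nothing. The CPM of the 2 groups did not overlap for 17 of the 19, against 83.0% of all genes tested.

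**Figure D1:**
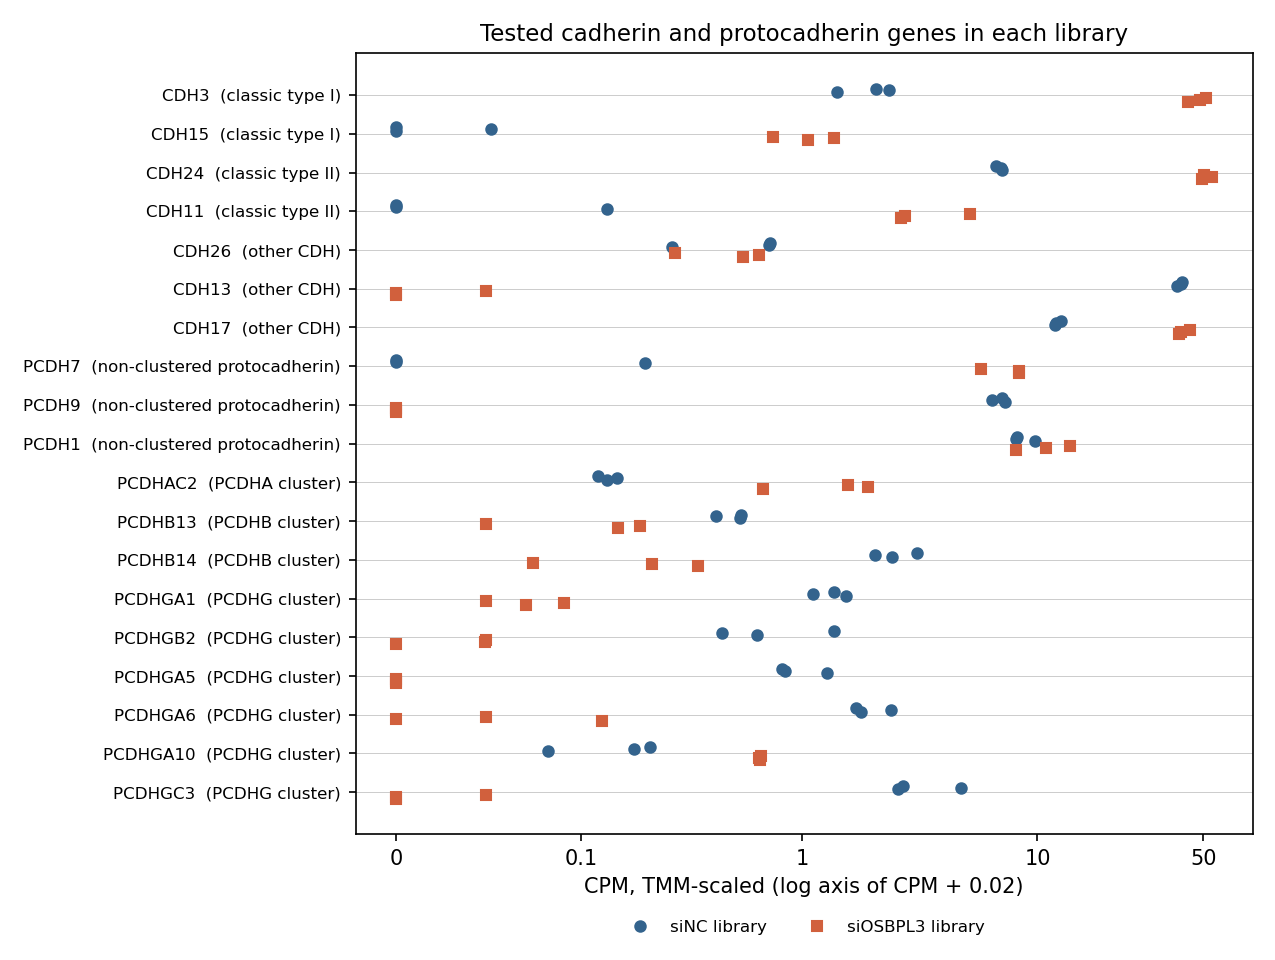
TMM-scaled CPM (log axis of CPM + 0.02) of the 19 tested genes in each of the 3 siNC libraries (circles) and 3 siOSBPL3 libraries (squares). CDH26 and PCDH1 overlap between the groups, while CDH13, PCDH9, PCDHGA5 and PCDHGC3 sit at or next to 0 in siOSBPL3 and CDH11, CDH15 and PCDH7 at or next to 0 in siNC.

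Classic cadherins that could be tested were all higher in siOSBPL3: CDH3, CDH15, CDH24 and CDH11 rose, against 40.4% of all genes tested, and CDH4 and CDH22 did not pass the filter. CDH1, a classic cadherin outside the symbol rule, was tested and not called. CDH3 encodes P-cadherin, a type I cadherin of basal epithelial layers (chromosome 16, 68645310 to 68733771, GRCh38.p14). It stood at 2.07, 2.35 and 1.42 CPM in siNC and at 51.4, 48.6 and 42.9 CPM in siOSBPL3. The 2 groups were far apart, with a log2 fold change of 4.60 ± 0.16 (SE, n = 3 per group; adjusted p = 1.9e-10, edgeR). Its neighbour on the chromosome, the E-cadherin gene CDH1, stood at 229 ± 7.10 CPM in siNC and 207 ± 26.9 CPM in siOSBPL3 (SD, n = 3 each) (log2 fold change -0.15 ± 0.10, adjusted p = 0.19, edgeR). CDH2, the N-cadherin gene, had 1 count in all 6 libraries together. In bulk libraries, fewer cells that express a gene and less RNA per cell cannot be told apart.

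CDH24, a type II cadherin that binds catenins (chromosome 14, 23047067 to 23057520), stood at 6.66, 7.02 and 7.11 CPM in siNC and at 50.3, 54.3 and 49.4 CPM in siOSBPL3. Both groups were tight, and CDH24 rose by 2.89 ± 0.10 on the log2 scale (adjusted p = 1.7e-10, edgeR). With the GC and length correction that value was 2.00. The transcript of CDH24 is GC-rich, at 64.2%, as is that of CDH15, at 65.9%.

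CDH11 and CDH15 were almost uncounted in siNC and rose. CDH11 (OB-cadherin, a type II cadherin of mesenchymal and bone-forming cells) had 0, 0 and 4 counts in siNC and 187, 101 and 105 counts in siOSBPL3, or 3.53 ± 1.43 CPM. The siOSBPL3 library with the most CDH11 was replicate 1, and every siNC count was in replicate 3. The fitted log2 fold change was 6.27 ± 0.71 (adjusted p = 4.9e-06, edgeR), and 9.98 without siNC replicate 3. The summed mesenchymal markers above went the other way, falling to 8.58 CPM or less, and their part in the result was not tested. CDH15 (M-cadherin, known from skeletal muscle) had 0, 1 and 0 counts in siNC and 27, 50 and 42 in siOSBPL3. The ratio was 101 (95% exact binomial interval for counting error, 17.9 to 4041), and CDH15 was called (adjusted p = 1.7e-05, edgeR). Its fitted log2 fold change, 6.24, was 8.21 without siNC replicate 2, the library with the single count, and 5.32 with the GC and length correction. Intervals of this kind cover counting error alone.

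The other classic genes were barely counted. CDH4 (R-cadherin) had no count in siNC and 3, 5 and 2 counts in siOSBPL3, at least 2.84-fold higher against a floor of 3 counts over the siNC libraries. CDH22 had 1 count in siNC and 2 in siOSBPL3. Neither passed the filter.

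The 5 CDH genes outside the classic types went separate ways: CDH13 fell, CDH17 rose, CDH26 was not called, and CDH16 and CDH23 did not pass the filter. CDH13 encodes T-cadherin, which is held in the membrane by a lipid (GPI) anchor and lacks the cytoplasmic tail through which classic cadherins bind catenins. The gene spans chromosome 16 from 82626969 to 83800640. It had 1338, 1335 and 1152 counts in siNC and 1, 0 and 0 counts in siOSBPL3. In CPM that was 39.9 ± 0.98 in siNC and 0.0092 ± 0.016 in siOSBPL3 (SD, n = 3 each). All siNC libraries lay within a narrow band and the siOSBPL3 libraries at the limit of detection. The ratio was 4486 (95% counting interval 805 to 177232; adjusted p = 8.1e-12, edgeR). The single siOSBPL3 count was in replicate 1, the library that kept most OSBPL3, and the fitted log2 fold change of -11.64 was -13.42 without it. Mesenchymal markers that SW620 expressed in siNC fell along with CDH13, with VIM as above and LUM from 60.3 to 0 CPM, and their part in the result was not tested.

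CDH17 encodes LI-cadherin, the cadherin of liver and intestine, a marker of intestinal epithelium. It stood at 12.6, 11.98 and 11.9 CPM in siNC and at 44.1, 40.4 and 39.4 CPM in siOSBPL3. Without overlap between the groups, CDH17 rose by 1.76 ± 0.10 on the log2 scale (adjusted p = 8.7e-09, edgeR). Of the other intestinal markers, CDX2 and LGALS4 (0.40 against 9.08 CPM) rose and VIL1 fell. CDH26, an epithelial cadherin, stood at 0.73, 0.72 and 0.27 CPM in siNC and 0.28, 0.66 and 0.56 CPM in siOSBPL3. Its groups overlapped, and the log2 fold change of -0.22 ± 0.52 was not called (adjusted p = 0.71, edgeR), with a sign that turned without siOSBPL3 replicate 1 (0.07).

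CDH16, the kidney-specific cadherin, had 9, 11 and 12 counts in siNC and 1, 1 and 0 in siOSBPL3, a ratio of 18.8 (95% counting interval 4.79 to 162). CDH23, which forms the tip links of hair cells together with PCDH15, had 11 counts in siNC and 1 in siOSBPL3 (ratio 12.9, interval 1.88 to 555). Both were thus counted more often in siNC, as was CDH13.

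Per kilobase of the longest annotated transcript, the order of the 42 genes changed at the top. In siNC, CDH13 led at 4.96 CPM per kb, followed by CDH17 at 3.29, CDH24 at 1.95 and PCDH1 at 1.81, where the libraries of CDH24 and PCDH1 overlapped. In siOSBPL3, CDH24 led at 14.4 CPM per kb, followed by CDH17 at 11.2, CDH3 at 9.66, PCDH1 at 2.28 and PCDH7 at 1.11, with no overlap between neighbours in this order. CDH13 was at 0.0011 CPM per kb in siOSBPL3. Transcripts used in the cells may be shorter than the longest one, so these levels are approximate.

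Of the 4 non-clustered protocadherins, PCDH1, PCDH7 and PCDH9 belong to the delta group, whose members also signal through their cytoplasmic tails, and PCDH12 is known from endothelium. They held the sharpest opposites: PCDH9 fell, PCDH7 rose, and PCDH1 was not called. PCDH9 (chromosome 13, 66302834 to 67230336, minus strand) had 233, 213 and 217 counts in siNC and none in any siOSBPL3 library. Against a floor of 3 counts over the siOSBPL3 libraries it was at least 259-fold lower (adjusted p = 2.7e-08, edgeR). PCDH9 was thus not detected at this depth in siOSBPL3. PCDH7 (chromosome 4, 30720369 to 31146800, plus strand) had 0, 0 and 6 counts in siNC and 209, 306 and 331 counts in siOSBPL3, or 7.50 ± 1.49 CPM. As for CDH11, all its siNC counts were in replicate 3. The fitted log2 fold change was 6.82 ± 0.58 (adjusted p = 3.3e-07, edgeR), 11.06 without that library, 6.23 without either of the other siNC libraries, and 7.45 with the GC and length correction.

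PCDH1, a delta protocadherin of epithelia, had overlapping levels in the 2 groups. It stood at 8.22, 8.10 and 9.74 CPM in siNC and at 13.7, 10.9 and 8.09 CPM in siOSBPL3, so that the lowest siOSBPL3 library lay below every siNC library. The log2 fold change was 0.33 ± 0.19 (adjusted p = 0.13, edgeR). It became 0.51 and was called without siOSBPL3 replicate 3 (adjusted p = 0.015), and became -0.24 with the GC and length correction. PCDH12 had 4 counts in siNC and 3 in siOSBPL3.

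**Figure D2:**
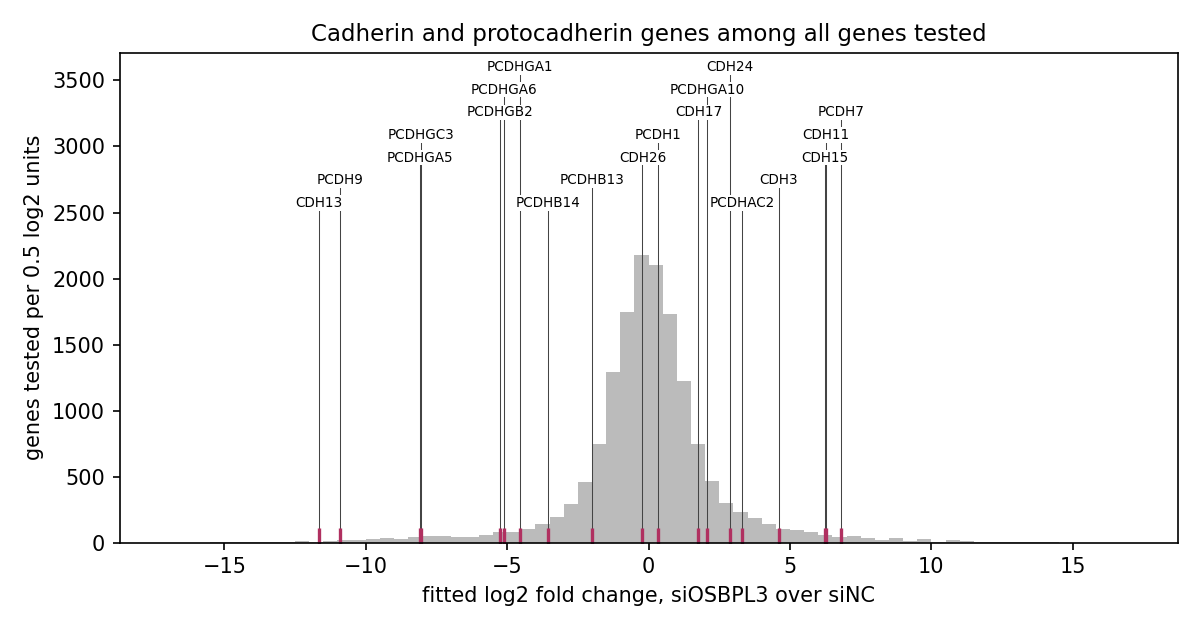
Histogram of the fitted log2 fold change (siOSBPL3 over siNC) of all 15506 genes tested, in bins of 0.5, with the 19 tested cadherin and protocadherin genes marked and named. They run from CDH13 at -11.64 to PCDH7 at 6.82, and fitted values beyond about 5 rest on very few counts in one group.

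The PCDHB cluster was lower in siOSBPL3. Summed over its 10 genes it held 163, 130 and 122 counts in siNC and 13, 20 and 20 in siOSBPL3, or 4.33 ± 0.56 and 0.47 ± 0.10 CPM, a ratio of 9.20. Only PCDHB14 and PCDHB13 passed the filter, and both fell, as did 39.8% of all genes tested. PCDHB14 (chromosome 5, 141223343 to 141227759) stood at 3.10, 2.05 and 2.43 CPM in siNC and at 0.055, 0.22 and 0.35 CPM in siOSBPL3. It made up 58.3% of the cluster's counts in siNC (95% exact binomial interval 53.4 to 63.1) and 45.3% in siOSBPL3 (31.6 to 59.6). Both intervals pool the libraries of a group and cover counting error alone. The log2 fold change of PCDHB14 was -3.55 ± 0.50 (adjusted p = 3.4e-05, edgeR), and -4.16 without siOSBPL3 replicate 3.

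PCDHB13 fell less, from 0.55, 0.42 and 0.54 CPM to 0.028, 0.19 and 0.15 CPM. The groups did not overlap, and its log2 fold change of -1.98 ± 0.62 passed the threshold (adjusted p = 0.011, edgeR). Of the 8 PCDHB genes that did not pass the filter, all 8 had the higher mean CPM in siNC and 3 (PCDHB2, PCDHB4 and PCDHB6) had no count in siOSBPL3. The most counted of them was PCDHB16, with 17, 20 and 8 counts in siNC and 1, 0 and 0 in siOSBPL3 (ratio 52.8, 95% counting interval 9.001 to 2130). At 20 counts or fewer per library, single genes of this set say little on their own. How many of all genes below the filter were likewise higher in siNC was not computed.

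The PCDHG cluster was lower as a sum in siOSBPL3, while PCDHGA10 within it rose. Summed over 16 genes it held 298, 362 and 250 counts in siNC and 33, 30 and 33 in siOSBPL3, or 9.46 ± 1.28 and 0.86 ± 0.05 CPM, a ratio of 11.1. Of 6 genes tested 5 fell and 1 rose, against 39.8% and 40.4% of all genes tested. The 10 genes that did not pass the filter all had the higher mean CPM in siNC, and 6 of these had no count in siOSBPL3. The same shares over all genes below the filter were not computed, so these counts only describe the 10 genes. The sum over a cluster is a description, and how reads of the shared constant exons were assigned is not given in the sources used here.

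PCDHGC3, a C-type gene at the far end of the cluster (chromosome 5, from 141475966), was the most counted PCDHG gene in siNC. It had 89, 158 and 76 counts there and 1, 0 and 0 in siOSBPL3, which gives a ratio of 379 (95% counting interval 67.5 to 15008; adjusted p = 3.7e-07, edgeR). PCDHGA5 had 27, 28 and 38 counts in siNC and none in siOSBPL3, at least 36.4-fold lower against the floor of 3 counts (adjusted p = 2.5e-05, edgeR). These 2 genes were thus lost to detection, or nearly so, in siOSBPL3.

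PCDHGA6 stood at 1.70, 2.41 and 1.79 CPM in siNC and at 0.028, 0 and 0.13 CPM in siOSBPL3, a log2 fold change of -5.12 ± 0.66 (adjusted p = 1.4e-05, edgeR) that became -6.81 without siOSBPL3 replicate 3. PCDHGA1, the first gene of the array, stood at 1.37, 1.11 and 1.55 CPM in siNC and at 0.028, 0.082 and 0.051 CPM in siOSBPL3, a log2 fold change of -4.56 ± 0.56 (adjusted p = 9.1e-06, edgeR). PCDHGB2 had 45, 15 and 19 counts in siNC and 1, 1 and 0 in siOSBPL3 (ratio 46.3, interval 12.4 to 389; adjusted p = 9.8e-05, edgeR). Of these genes PCDHGB2 varied most between siNC libraries, with replicate 1 well above the others. Its fitted log2 fold change went from -5.27 to -4.67 without that library.

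PCDHGA10 (chromosome 5, from 141412987) went against its neighbours. It had 7, 6 and 2 counts in siNC and 24, 24 and 26 in siOSBPL3, or 0.15 ± 0.08 and 0.66 ± 0.0045 CPM. The groups did not overlap, and PCDHGA10 rose by 2.06 ± 0.53 on the log2 scale (adjusted p = 0.0035, edgeR). Its share of all PCDHG counts went from 1.65% (15 of 910, 95% exact binomial interval 0.93 to 2.70) in siNC to 77.1% (74 of 96, interval 67.4 to 85.1) in siOSBPL3. PCDHGC3 went from 35.5% (32.4 to 38.7) to 1.042% (0.026 to 5.67). These intervals pool the libraries of a group and cover counting error alone, not the spread between libraries. In the siNC libraries PCDHGC3 had 89, 158 and 76 of 298, 362 and 250 PCDHG counts. On either side of PCDHGA10, the measured genes PCDHGA9 and PCDHGB7 had 7 and 10 counts in siNC and 0 and 1 in siOSBPL3. PCDHGA11, the next A-type gene, had 20 and 1.

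The PCDHA cluster was represented by 1 gene, PCDHAC2, a C-type gene with the start at 140966476 on chromosome 5. It had 4, 5 and 4 counts in siNC and 57, 70 and 27 in siOSBPL3, or 0.14 ± 0.01 and 1.39 ± 0.64 CPM. All siOSBPL3 libraries were higher, although replicate 3 had fewer counts than the others, and PCDHAC2 rose by 3.32 ± 0.56 on the log2 scale (adjusted p = 0.00014, edgeR). The counts held no other gene whose symbol begins with PCDHA, PCDHB or PCDHG. Sums and shares of the clusters thus cover only the genes that were counted.

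**Figure D3:**
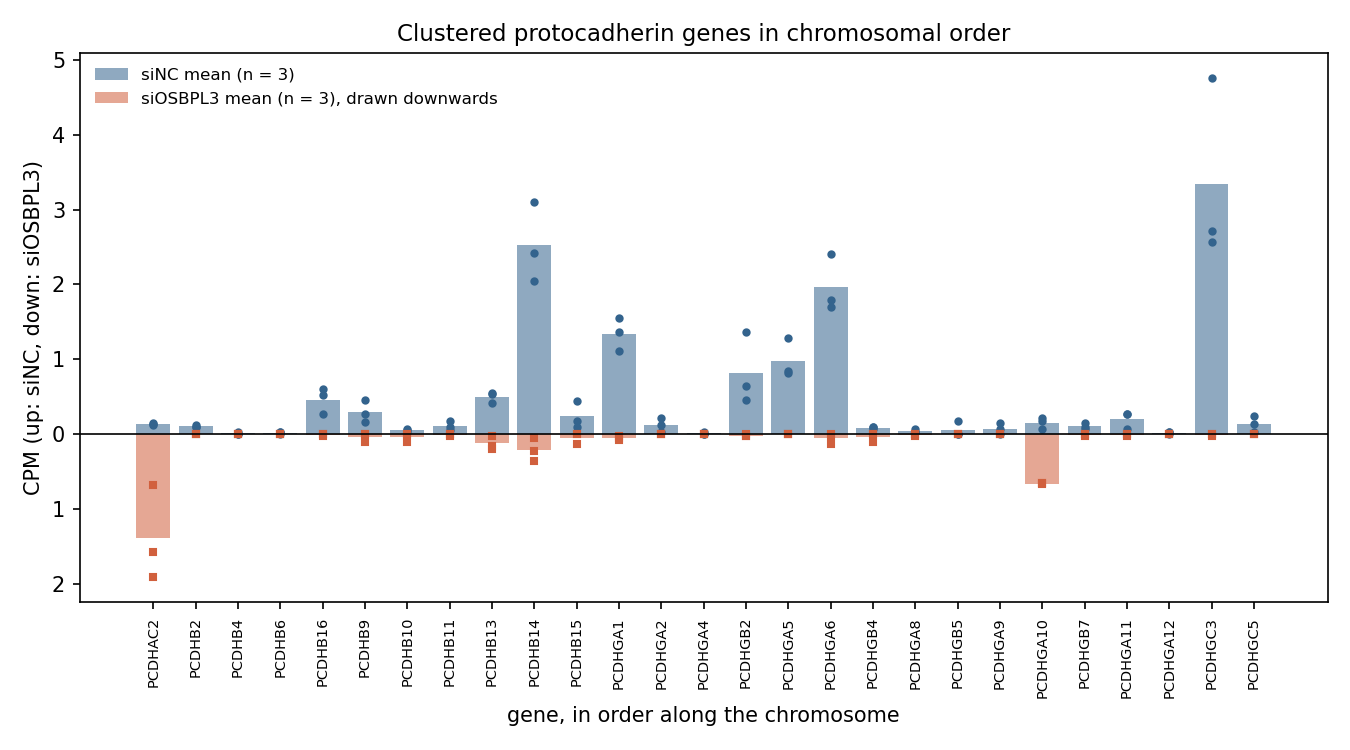
CPM of the 27 clustered protocadherin genes in their order on chromosome 5, siNC upwards and siOSBPL3 downwards; bars are means of 3 libraries and points single libraries. PCDHB14, PCDHGA1, PCDHGA6 and PCDHGC3 lead in siNC, while PCDHAC2 (1.39 CPM) and PCDHGA10 (0.66 CPM) are the only bars above 0.5 CPM in siOSBPL3.

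Genes next to the arrays were measured for comparison. TAF7, a general transcription factor gene between the PCDHB and PCDHG arrays, stood at 138 CPM in siNC and 128 CPM in siOSBPL3 (log2 fold change -0.11 ± 0.08, adjusted p = 0.25, edgeR). DIAPH1, the formin gene just beyond the PCDHG array, stood at 161 ± 3.72 and 170 ± 24.8 CPM (0.07 ± 0.10, adjusted p = 0.52, edgeR). These 2 genes, at either end of the PCDHG array, were thus not called while 5 PCDHG genes between them fell. A wider window ran from 300 kb before the start of PCDHAC2 to 300 kb beyond the PCDHG array. It was set from PCDHAC2, the only PCDHA gene analysed, so genes further upstream were left out. Outside the families, 11 tested genes had their start in it, TAF7 and DIAPH1 included. Of these, 6 were lower, 0 higher and 5 not called at an adjusted p of 0.05 in edgeR. Over all genes tested, 39.8% were lower, 40.4% higher and 80.2% called. The median log2 fold change of the 11 genes was -0.60. The lowest were RELL2, from 28.3 to 6.81 CPM (-2.05 ± 0.12, and -3.10 with the GC and length correction), and the uncharacterised LOC107986454, from 0.41 CPM to no count. With that correction DND1 (-1.41) and ARAP3 (-0.43) were called lower as well.

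With no filter on low counts, all 42 genes entered the test, and 9 were higher and 16 lower (adjusted p of 0.05, edgeR), against 32.2% and 31.9% of the 20510 genes then tested. The 8 genes added to the calls were CDH4 (higher) and CDH16, PCDHB2, PCDHB9, PCDHB16, PCDHGA2, PCDHGA11 and PCDHGC5 (lower). The share of the 42 that was called, 59.5%, was near the background of 64.1%. Higher calls fell mostly on CDH genes and lower calls mostly on the clusters, a pattern for which no test was run.

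Genes for proteins that bind cadherins moved in both directions. Of 8 catenins and cadherin-bound partners tested, 3 rose, 5 fell and 0 were not called, against 40.4% higher and 39.8% lower over all genes tested. Their median log2 fold change was -0.73, against -0.00089 over all genes tested. CTNNA1, the alpha-catenin that links the cadherin complex to actin, had means of 683 and 46.5 CPM and fell by 3.88 ± 0.09 on the log2 scale (SE; adjusted p = 6.3e-12, edgeR). CTNND1, the p120 catenin that stabilises cadherins at the membrane, fell by 3.49 ± 0.26 on the log2 scale, from 11.3 to 1.00 CPM. ARVCF, a relative of p120, rose by 1.63 ± 0.11, and by 0.67 with the GC and length correction. The call of CTNNB1 (beta-catenin, -0.51) was lost with that correction (-0.10, adjusted p = 0.34, edgeR), which left 3 higher, 4 lower and 1 not called. Of all 13818 genes tested with that correction, 5680 were higher and 5132 lower.

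Desmosomal genes and other members of the cadherin superfamily were mixed as well. Of 6 desmosomal genes tested 4 rose and 2 fell, where 80.2% of all genes tested were called. DSP, the plaque protein desmoplakin, fell by 2.58 ± 0.10 (536 to 89.6 CPM), and the desmosomal cadherin DSC2 rose by 2.59 ± 0.19 (4.61 to 27.7 CPM), or by 3.77 with the GC and length correction. The direction of PKP3 (0.88) turned with the correction (-0.24), for 3 higher and 3 lower. In that corrected fit, 10812 of all 13818 genes tested were called, 5680 higher and 5132 lower. Of 12 other superfamily genes tested 6 rose, 3 fell and 3 were not called, also with the correction. The share called, 75.0%, was near the 80.2% of all genes tested. CDHR2 and CDHR5, the protocadherins that pair between brush border microvilli, went opposite ways: CDHR2 fell from 32.9 to 0.25 CPM (-7.02 ± 0.17), and CDHR5 rose from 0.073 to 6.28 CPM (6.36 ± 0.45, and 5.47 with the correction). CELSR1, a planar polarity cadherin, rose by 3.50 ± 0.13, and CELSR3 fell by 1.66 ± 0.14.

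Of 19 genes for CTCF, cohesin, DNA methylation and other factors linked to clustered protocadherin promoters, 13 fell, 3 rose and 3 were not called, with a median log2 fold change of -0.46. The share called, 84.2%, was near the 80.2% of all genes tested. CTCF itself was at 73.3 and 76.9 CPM (0.07, adjusted p = 0.50, edgeR), and was called higher with the correction (0.32, adjusted p = 0.0027). The de novo DNA methyltransferase gene DNMT3B had means of 42.8 and 7.52 CPM and fell by 2.51 ± 0.10 (adjusted p = 6.5e-10, edgeR), and the cohesin gene STAG2 fell by 2.44 ± 0.09, or by 1.51 with the correction. The histone methyltransferase gene EHMT2 and its partner WIZ rose by 1.05 ± 0.12 and 1.27 ± 0.12, and by 0.41 and 0.53 with the correction. PDS5A, PDS5B, SMCHD1 and REST, lower without the correction, were higher with it, so that 9 genes were then lower, 8 higher and 2 not called. Over all 13818 genes tested with the correction, 5132 were lower and 5680 higher.

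**Figure D4:**
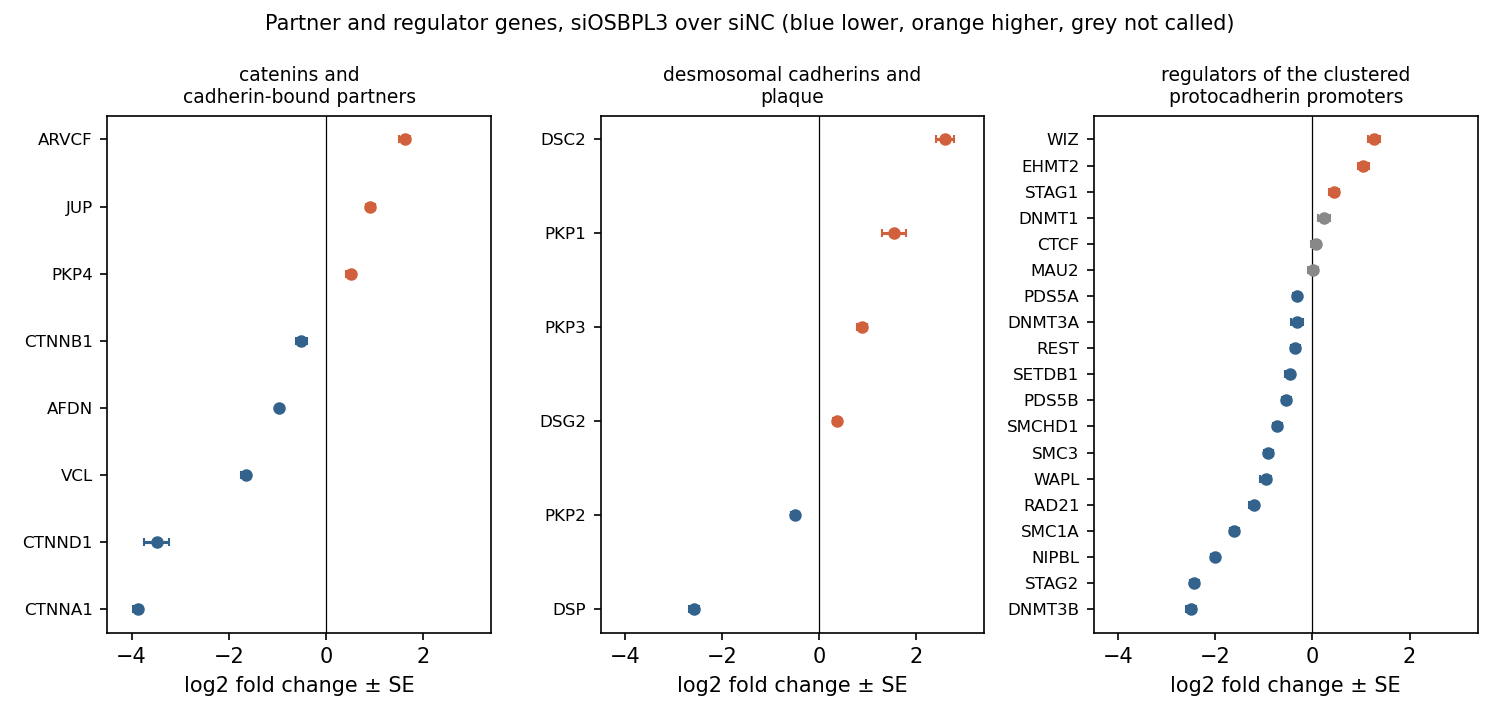
Log2 fold change (siOSBPL3 over siNC) with its SE for each tested gene of 3 lists: catenins and bound partners, desmosomal genes, and regulators of the clustered protocadherin promoters; blue is called lower, orange called higher and grey not called. CTNNA1 and CTNND1 lie below -3, and CTCF lies at 0.07.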

How the data were processed

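The 6 libraries come as 1 table of unnormalised counts of reads per gene, as the authors deposited it. The submitters' processing notes name HISAT2 2.2.1, HTSeq 0.13.5 and GRCh38. Annotation, strand setting and the handling of reads shared between genes are not given in the sources used here, so antisense overlaps and the constant exons of the PCDHA and PCDHG clusters are uncertain. RNA was taken up in Trizol and sequenced in read pairs, per the labels' protocols.

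Genes with low counts were removed by filterByExpr (minimum count 10, total 15). TMM scaling and the robust quasi-likelihood test of edgeR 4.0.16 (R 4.3.3, two-sided, no covariate) followed, with Benjamini-Hochberg adjusted p-values over all 15506 genes left and 0.05 as the limit. Fold changes are siOSBPL3 against siNC, and SEs were derived from the F statistic. A floor of 3 counts over a group equals 0.031 CPM in siNC and 0.027 CPM in siOSBPL3. The edgeR fit alone was tested on simulated counts, in which far fewer genes changed than were called here.

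Alternatives were DESeq2 1.42.0, voom (limma 3.58.1), RLE factors, library totals, no filter, a limit of 0.01, a replicate block, each library left out, and offsets for GC and transcript length (mgcv 1.9.3, GENCODE 29, known for 89.1% of tested genes). The naming rule took OSBPL3, CDH13, tested members reaching a group mean of 1 CPM, the extremes, and up to 4 called genes per partner list. Every other gene was named after its values were seen. Members and lists were chosen with earlier results of these data known. Replicates differed beyond sampling noise, with chi-square per degree of freedom of 2.98 to 3.59 between siNC libraries and 19.5 to 52.1 between siOSBPL3 libraries, where replicate 1 stood apart from the others. Each counted once. Positions and promoters are RefSeq's (GRCh38.p14).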

Additional observations from a re-analysis of the deposited data

How the results depend on the processing

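The count of members higher in siOSBPL3 (8) stayed between 8 and 9 in every alternative, and OSBPL3 stayed lower in each (log2 fold change from -3.68 to -2.31). The count of members lower (9) was 15 with DESeq2 and 16 with no filter on low counts, both of which test more of the rarely counted genes. Over all genes, 6179 were called lower in the main fit, 6501 with DESeq2 and 6552 with no filter. For the same subfamilies, PCDHB genes lower (2) were 4 with DESeq2, 5 with no filter and 1 at a threshold of 0.01, PCDHG genes lower (5) were 8 with DESeq2 and with no filter, and other CDH genes lower (1) were 2 with both. With libraries left out, PCDHB genes lower ranged from 2 to 3, other CDH genes lower from 1 to 2 and non-clustered protocadherins higher from 1 to 2. Members lower ranged from 9 to 11 in those fits. Over all genes, they called 5803 to 6553 lower and 5995 to 6481 higher. The sign of PCDH1 turned under the GC and length offsets (-0.24), and CDH26 ranged from -0.55 to 0.071 with libraries left out, above 0 without siOSBPL3 replicate 1; neither was called there. Fitted values of genes near 0 in a group also moved without loss of a call, as for PCDH7 (6.82, and 11.06 without siNC replicate 3), CDH11 (6.27, and 9.98 without siNC replicate 3), PCDH9 (-10.91, and -9.02 with voom), PCDHGA5 (-8.09, and -6.18 with voom) and PCDHGC3 (-8.06, and -9.85 without siOSBPL3 replicate 1). PCDHB13 missed the threshold of 0.01 (adjusted p = 0.011). Same-numbered libraries did not deviate together (correlations from -0.020 to -0.0042). No pairing by number was seen, but with 3 libraries per group a weak one could be missed. With the replicate number as a block, 8 members were higher, 9 lower, and 12277 genes were called in all. Depth limits the 23 members that did not pass the filter, none above 20 counts in a library.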

Other observations

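Enzymes that cut or process cadherins were measured alongside. Of 6 tested, 3 rose, 2 fell and 1 was not called at an adjusted p of 0.05 in edgeR. The share called was 83.3%, against 80.2% of all genes tested, and the median log2 fold change was 0.30. With the GC and length offsets 4 were higher, 1 lower and 1 not called, beside 5680 higher and 5132 lower of all 13818 genes tested. NCSTN, a subunit of gamma-secretase, rose from 37.6 ± 0.51 to 107 ± 6.85 CPM (SD, n = 3 each; log2 fold change 1.505 ± 0.08). FURIN, which cuts the cadherin propeptide, rose by 1.47 ± 0.10, and by 0.79 with those offsets. ADAM10, the sheddase of several cadherins, fell by 1.21 on the log2 scale, a call lost with the offsets (-0.02, adjusted p = 0.82), and ADAM17 (-0.52) turned to 0.32 with them.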
